A study of Saccharomyces cerevisiae and Kluyveromyces lactis with 95 samples.

Results

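The genes of the large subunit of the cytoplasmic ribosome, the 60S ribosomal protein genes, were followed through inhibition of protein kinase A (PKA) in the budding yeasts Saccharomyces cerevisiae and Kluyveromyces lactis. Members were chosen by name alone. They are the S. cerevisiae genes named RPL followed by a digit, or RPP0, RPP1 or RPP2 with or without a copy letter, and the K. lactis genes that the deposited tables pair with such a name. This gave 80 of 6600 S. cerevisiae genes and 47 of 5534 K. lactis genes, and all 80 and all 47 passed the filter on low counts. The name rule also takes in RPP1, which the reference annotation describes as an RNA processing protein (a subunit of RNase P) and not as a ribosomal protein. It is counted with the members here, and 79 and 46 genes remain without it. RPL21A and RPL29 carry such names too, but the count tables list them at 0 in all 60 S. cerevisiae libraries and they are not among the 80. For RPL20, RPL39 and RPL41 no K. lactis member was found.

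PKA-AS strains carry analog-sensitive PKA catalytic subunits, in which an enlarged ATP pocket admits the inhibitor 1-NM-PP1, and PKA-WT strains carry the unmodified kinase. Growing cultures in YPD at 30 °C were divided, and the parts received 3 uM 1-NM-PP1 or the solvent DMSO for 50 min. In S. cerevisiae both backgrounds were tested without a deletion, without MSN2 and MSN4 (called M24), without RPH1 and GIS1 (RG) and without all of these genes (RGM24), and in K. lactis the deletions took out the shared ortholog of each of these gene pairs. Each S. cerevisiae group held 4 cultures in PKA-AS and 3 in PKA-WT, and each K. lactis PKA-AS group held 4, except RGM24 with 3. K. lactis PKA-WT, tested without a deletion only, had 3 cultures with 1-NM-PP1 and 2 with DMSO. The number of independent clones behind each strain is not given in the sources used here, so p-values measure the spread between these cultures. Cultures carry the numbers 1, 2, 3, 4 or 2017 from the labels.

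Ribosome production is among the most costly activities of a growing yeast cell, and PKA couples it to glucose. In S. cerevisiae the transcription factors Rap1 and Fhl1, with the coactivator Ifh1, drive ribosomal protein genes, and transcripts of these genes decline when PKA or TOR activity drops. Msn2 and Msn4 are activators of stress genes that active PKA keeps in the cytoplasm, and Rph1 and Gis1 are related zinc-finger proteins that act in nutrient limitation. Most S. cerevisiae ribosomal protein genes exist as a pair of copies, called A and B. The lineage kept many such pairs after its ancient whole genome hybridization, whereas K. lactis branched off before it and has mostly a single gene for each protein. The members include 34 pairs by their A and B names. K. lactis holds separate orthologs of RPL9A and RPL9B, of RPP1A and RPP1B, and of RPP2A and RPP2B. The names alone therefore do not show that a pair stems from the hybridization.

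The promoters of the RPL15, RPL22 and RPL1 pairs are shown because the balance between these copies shifted under PKA inhibition, as described further on. Each sequence is from RefSeq R64, reads 5′ to 3′ on the strand of its gene and covers bases -450 to -151 before the start codon. Capitals mark matches on either strand to the Rap1 core ACCCNNACA, the Fhl1 core GACGCA or the stress response element (STRE) CCCCT that Msn2 and Msn4 bind. RPL15A is at chrXII:202741-203040 on the minus strand, RPL15B at chrXIII:510499-510798 on the minus strand, RPL22A at chrXII:262744-263043 on the plus strand, RPL22B at chrVI:65083-65382 on the minus strand, RPL1A at chrXVI:135340-135639 on the plus strand and RPL1B at chrVII:254191-254490 on the plus strand.
RPL15A: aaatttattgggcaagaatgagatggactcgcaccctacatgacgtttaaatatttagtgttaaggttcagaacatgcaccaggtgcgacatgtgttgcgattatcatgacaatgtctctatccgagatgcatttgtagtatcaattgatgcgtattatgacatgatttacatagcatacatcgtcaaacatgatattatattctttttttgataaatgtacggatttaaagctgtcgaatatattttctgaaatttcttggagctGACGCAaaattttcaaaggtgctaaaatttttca
RPL15B: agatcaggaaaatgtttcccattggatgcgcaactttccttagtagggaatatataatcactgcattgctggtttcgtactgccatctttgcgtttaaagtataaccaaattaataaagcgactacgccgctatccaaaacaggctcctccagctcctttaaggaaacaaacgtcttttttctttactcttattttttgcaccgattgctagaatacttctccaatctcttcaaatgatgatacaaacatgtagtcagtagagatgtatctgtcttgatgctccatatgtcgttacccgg
RPL22A: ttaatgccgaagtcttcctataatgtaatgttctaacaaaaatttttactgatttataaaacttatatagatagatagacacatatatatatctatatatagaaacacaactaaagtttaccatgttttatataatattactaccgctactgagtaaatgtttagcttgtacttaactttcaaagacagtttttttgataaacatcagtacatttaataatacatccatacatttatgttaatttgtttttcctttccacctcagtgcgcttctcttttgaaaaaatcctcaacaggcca
RPL22B: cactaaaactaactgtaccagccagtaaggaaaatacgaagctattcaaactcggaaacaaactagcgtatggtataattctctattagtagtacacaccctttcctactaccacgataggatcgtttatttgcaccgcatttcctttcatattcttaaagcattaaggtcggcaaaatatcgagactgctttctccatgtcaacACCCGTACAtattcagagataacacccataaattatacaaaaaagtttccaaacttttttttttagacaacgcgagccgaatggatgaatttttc
RPL1A: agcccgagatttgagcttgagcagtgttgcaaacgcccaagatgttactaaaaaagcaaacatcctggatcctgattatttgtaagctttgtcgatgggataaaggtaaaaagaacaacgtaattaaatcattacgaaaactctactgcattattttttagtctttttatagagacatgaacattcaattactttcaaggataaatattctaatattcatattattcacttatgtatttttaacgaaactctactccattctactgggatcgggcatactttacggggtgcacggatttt
RPL1B: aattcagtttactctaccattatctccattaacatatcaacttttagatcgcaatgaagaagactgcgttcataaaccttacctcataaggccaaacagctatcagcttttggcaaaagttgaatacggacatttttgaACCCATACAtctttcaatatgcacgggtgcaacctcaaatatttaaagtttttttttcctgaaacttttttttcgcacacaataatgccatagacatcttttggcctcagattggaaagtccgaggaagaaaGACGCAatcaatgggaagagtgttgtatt

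The RPL15A window holds 1 Fhl1 core, the RPL22B window 1 Rap1 core, and the RPL1B window 1 Rap1 core and 1 Fhl1 core. The windows of their partner copies hold no match, and no window holds an STRE. Farther upstream, within 700 bases of the start codon, an STRE lies at -518 for RPL15A and at -648 for RPL15B. An STRE also lies at -620 for RPL22B and at -464 for RPL1B, just outside the printed window. RPL22A and RPL1A hold no STRE within these 700 bases. Over the 700 bases before the start codon, the Rap1 core was found at 39 of 79 60S genes (49.4%), at 35.2% of the 40S ribosomal protein genes and at 7.37% of all 5999 protein-coding genes. The Fhl1 core was found at 22.8% of the 60S genes and 15.2% of all genes, and the STRE at 46.8% and 44.5%. A match says only that these letters are present.

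Gene counts ranged from 188289 to 4715139 per S. cerevisiae library (median 2062219, 59 libraries used) and from 815372 to 4117520 per K. lactis library (35 libraries). The deleted genes were only in part checked by their counts. In S. cerevisiae MSN2 had 0 to 4 counts in the 28 cultures lacking it and 1 to 42 in the 28 others, MSN4 0 to 69 against 8 to 223 and GIS1 0 to 26 against 0 to 60, while RPH1 was at 0 in all 56. In K. lactis the gene that stands for MSN2 and MSN4 had 0 to 38 counts in the 14 cultures lacking it and 3 to 129 in the 21 others, and that of RPH1 and GIS1 7 to 40 against 9 to 86. These ranges overlap for each gene, and a 3′ tag outside the deleted stretch checks nothing. In S. cerevisiae several members were far higher in the cultures numbered 1, as described further on. The share of reads outside genes was 3.24 to 6.87% (median 4.35%) in them and 3.5 to 11.3% (median 6.32%) in the others, ranges that overlap. Within each S. cerevisiae DMSO group, however, culture 1 had the lowest share. In PKA-AS without a deletion it was 3.81% in culture 1, against 4.15, 6.07 and 4.99% in cultures 2, 3 and 2017. Whether this is linked to the higher members was not tested. Several counts and calls are also given without these cultures.

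PKA inhibition lowered nearly the whole set in PKA-AS cells of both yeasts. The 60S genes took 0.701 to 1.29% of all gene counts in the 4 S. cerevisiae PKA-AS cultures with 1-NM-PP1 and 13.2 to 17.8% in those with DMSO. In K. lactis PKA-AS the shares were 0.532 to 0.977% with 1-NM-PP1 and 15.2 to 20.8% with DMSO. In PKA-WT cultures without a deletion the 2 treatments also lay apart, but closer together. The S. cerevisiae PKA-WT shares were 9.22 to 12.5% with 1-NM-PP1 and 13.2 to 17.8% with DMSO, and the K. lactis PKA-WT shares were 6.27 to 8.15% with 1-NM-PP1 and 13.8 and 20.2% with DMSO. In bulk RNA a lower share of counts cannot be told apart from more RNA of other genes.

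**Figure D1:**
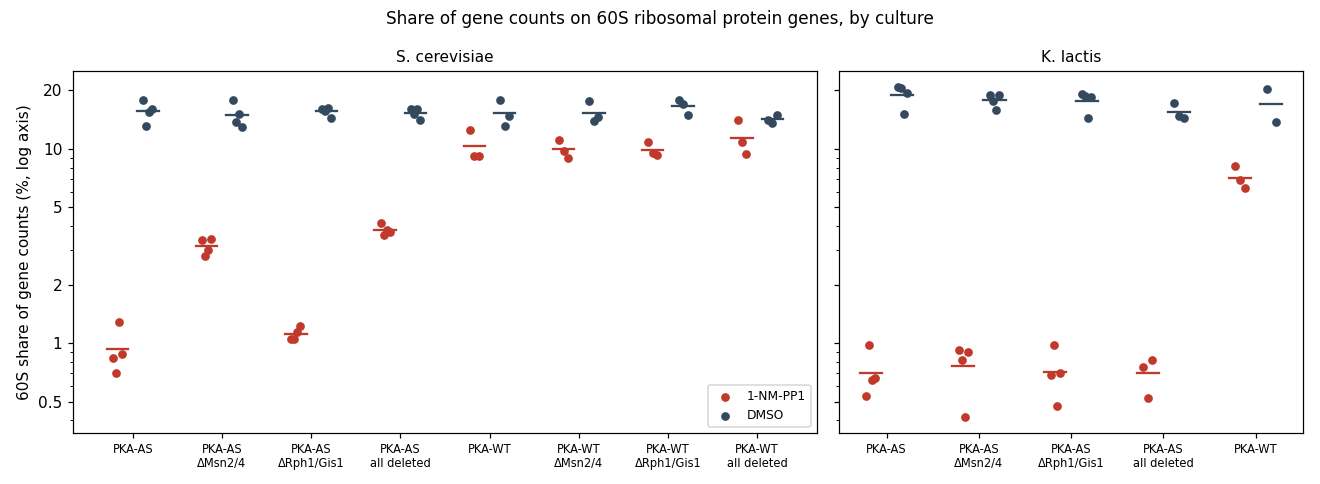
Share of gene counts on 60S ribosomal protein genes in every culture (log axis, percent), with 1-NM-PP1 left of DMSO in each strain and bars at the group mean. In S. cerevisiae PKA-AS the cultures with 1-NM-PP1 sit at 0.701 to 1.29% without a deletion and at 3.60 to 4.14% in RGM24, and in PKA-AS no group with 1-NM-PP1 overlaps its DMSO group in either yeast.

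Fold changes are log2 values of 1-NM-PP1 over DMSO with their standard error, and adjusted p-values are those of edgeR's quasi-likelihood test after Benjamini-Hochberg correction across every gene tested. A gene counts as repressed at a log2 fold change below -2 with an adjusted p under 0.01. In S. cerevisiae PKA-AS 79 of 80 members were repressed, against 12.5% of the 5779 genes tested, with a median log2 fold change of -4.62, and 72 were repressed without DMSO culture 1. The 40S genes gave a median of -4.61 with 53 of 54 repressed. The member that was not repressed was RPL15B. In K. lactis PKA-AS 46 of 47 members were repressed, against 13.6% of 5271 genes, with a median of -5.25, and all 33 40S genes were repressed. The exception there was the RNase P subunit RPP1, whose ortholog had 0 to 6 counts per culture with 1-NM-PP1 and 3 to 12 with DMSO, while S. cerevisiae RPP1 fell by 3.88 ± 0.36 on the log2 scale (edgeR, adjusted p 1.07e-12).

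**Figure D2:**
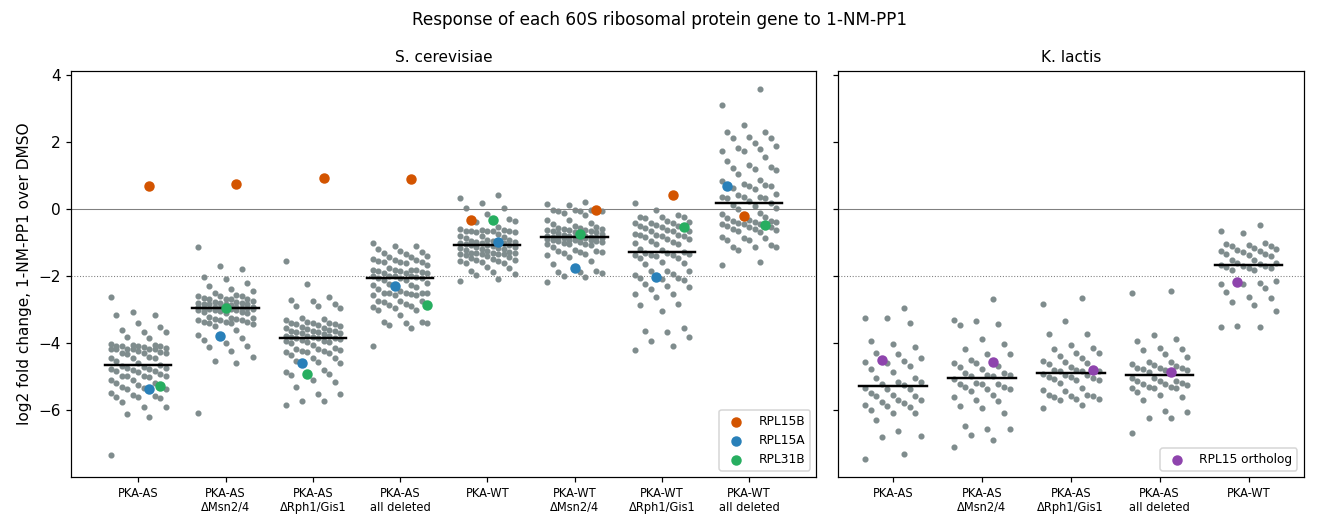
Log2 fold change of each 60S ribosomal protein gene, 1-NM-PP1 over DMSO, by strain and species (79 and 46 genes, RPP1 left out), with a dotted line at the threshold of -2. In PKA-AS without a deletion all S. cerevisiae genes but RPL15B lie below the line, and the medians over all members are -4.62 in S. cerevisiae and -5.25 in K. lactis.

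Genes for proteins around the catalytic centre fell in both yeasts. RPL28 (uL15, known for mutations that give cycloheximide resistance) had 637, 586, 740 and 1784 CPM in S. cerevisiae PKA-AS cultures 1, 2, 3 and 2017 with 1-NM-PP1, against 19770, 19900, 19940 and 21560 CPM with DMSO. CPM are gene counts scaled to library size with edgeR's TMM factors. The groups lay far apart, culture 2017 was highest in each, and the log2 fold change was -4.44 ± 0.36 (edgeR, adjusted p 1.27e-14). RPL3 (uL3), which reaches the peptidyl transferase centre, had 173, 34.7, 62.7 and 281 CPM in cultures 1, 2, 3 and 2017 with 1-NM-PP1, against 6757, 3191, 1033 and 4223 CPM with DMSO. These groups did not overlap either, but cultures of the same treatment differed severalfold, and the log2 fold change of -4.78 ± 1.29 had a wide error (edgeR, adjusted p 0.00173). K. lactis RPL3 was far more repeatable, at 57.9 to 82.2 CPM with 1-NM-PP1 and 4773 to 5926 CPM with DMSO (-6.30 ± 0.36 on the log2 scale, edgeR, adjusted p 9.08e-15). RPL10 (uL16), which joins the subunit late in assembly, had 3 to 9 counts in S. cerevisiae PKA-AS cultures with 1-NM-PP1 and 86 to 997 with DMSO (-5.61 ± 1.33, edgeR, adjusted p 0.000381), where so few counts leave the size uncertain, and the value was -4.08 without DMSO culture 1.

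RPL5 (uL18) and RPL11 (uL5), which bind the 5S ribosomal RNA as a particle before it joins the subunit, also fell. RPL5 had 70.5, 149, 198 and 316 CPM in S. cerevisiae PKA-AS cultures 1, 2, 3 and 2017 with 1-NM-PP1, against 6377, 9872, 10910 and 7647 CPM with DMSO. Culture 1 was lowest in both groups, the groups did not overlap, and RPL5 fell by 5.57 ± 0.51 on the log2 scale (edgeR, adjusted p 6.2e-13). RPL11A fell by 4.18 ± 0.72 and RPL11B by 4.75 ± 0.34. Around the exit tunnel, RPL25 (uL23, a docking site for factors that meet the nascent chain) had 0 to 2 counts per culture with 1-NM-PP1 and 12 to 97 with DMSO, a fitted log2 fold change of -4.79 ± 1.28. RPL39 (eL39, a small protein of the tunnel wall) had 0 to 3 counts with 1-NM-PP1 and 29 to 129 with DMSO, a fitted log2 fold change of -5.30 ± 0.85. Without DMSO culture 1 the RPL25 value was -3.72 and no longer called (edgeR, adjusted p 0.0203). At such depth these fold changes carry wide errors and depend on the prior count.

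The stalk recruits translation factors and consists of RPP0 (uL10) with the small acidic proteins of the RPP1 and RPP2 families. RPP0 had 37.5, 19.6, 49.0 and 105 CPM in S. cerevisiae PKA-AS cultures 1, 2, 3 and 2017 with 1-NM-PP1, against 5515, 1267, 765 and 2428 CPM with DMSO. The DMSO cultures spread widely with culture 1 on top, yet the lowest stayed above every culture with 1-NM-PP1, and the log2 fold change was -5.56 ± 1.17 (edgeR, adjusted p 8.09e-05). The 4 genes for the acidic proteins fell by 4.70 ± 0.68 (RPP1B), 5.00 ± 1.42 (RPP1A), 5.60 ± 0.69 (RPP2A) and 6.20 ± 1.75 (RPP2B). DMSO culture 1 decided much of these values. Without it RPP1A, at -3.72 (edgeR, adjusted p 0.0201), and RPP2B, at -4.61 (adjusted p 0.0176), lost their calls, while RPP1B at -4.06, RPP2A at -4.80 and RPP0 at -4.82 kept them. The K. lactis ortholog of RPP2A fell by 6.81 ± 0.34, with 16.3 to 20.7 CPM with 1-NM-PP1 and 1880 to 2231 CPM with DMSO (edgeR, adjusted p 1.12e-15).

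The members with the weakest repression still passed the threshold, apart from RPL15B. RPL41A, which encodes a very short basic peptide, had 2002, 3126, 3597 and 3423 CPM in S. cerevisiae PKA-AS cultures 1, 2, 3 and 2017 with 1-NM-PP1, against 14060, 8873, 27550 and 25280 CPM with DMSO. The groups did not overlap, and its log2 fold change was -2.64 ± 0.59 (edgeR, adjusted p 0.000183). RPL22B, RPL9B and RPL33B followed at -3.09 ± 0.40, -3.16 ± 0.19 and -3.17 ± 0.41. In K. lactis the weakest apart from RPP1 were RPL40, a fusion to ubiquitin, at -2.95 ± 0.38, RPL14 at -3.25 ± 0.68 and RPL43 at -3.26 ± 0.51. The most negative values were those of RPL9A (-7.35 ± 1.45, and -6.19 without DMSO culture 1) in S. cerevisiae and of RPL22 (-7.45 ± 0.75) in K. lactis.

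Without MSN2 and MSN4 the 60S genes kept a larger share of counts under PKA inhibition in S. cerevisiae. The weaker response was not limited to this set. Over all 5779 genes 725 were repressed and 562 activated without a deletion, against 381 and 162 in M24 and 373 and 81 in RGM24. The paper too describes a general decrease of the response without Msn2/4, for repressed and activated genes. Whether the 60S genes differ in this from other repressed genes was not tested. The 60S share in PKA-AS cultures with 1-NM-PP1 was 2.80 to 3.43% in M24 and 3.60 to 4.14% in RGM24, against 0.701 to 1.29% without a deletion, and the 3 ranges did not overlap. RG lay at 1.05 to 1.23%, inside the range of the cultures without a deletion. In M24 61 of 80 members were repressed (6.59% of all genes) with a median of -2.96, in RG 70 (12% of all genes) with a median of -3.84, and in RGM24 42 (6.45% of all genes) with a median of -2.06. Without the cultures numbered 1 the counts were 49, 67 and 37, and 79 in PKA-AS without a deletion. The 40S genes gave medians of -3.03, -3.89 and -2.11 in the same strains. With DMSO the 60S shares of M24 (12.9 to 18.0%), RG (14.5 to 16.3%) and RGM24 (14.1 to 16.1%) overlapped those of PKA-AS without a deletion.

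The difference in response was tested as an interaction, the log2 fold change in the deletion strain minus that without a deletion. In M24 19 of 80 members were higher by this test (edgeR, adjusted p under 0.01), against 5.05% of all genes, and the median over members was 1.58. In RGM24 33 were higher, against 6.9% of all genes, with a median of 2.41. In both none was called lower. With the culture number as a block the counts were 34 in M24 and 68 in RGM24, and without the cultures numbered 1 they were 14 and 28. With only the groups compared in the fit they were 8 and 51. In RG no member was called, against 0.0173% of all genes, 1 member had an unadjusted p under 0.05 (7.42% of all genes), DESeq2 called 0, and the median was 0.55. The M24, RG and RGM24 tests share the cultures without a deletion.

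RPL31B, whose protein (eL31) sits near the tunnel exit, was the most repeatable member. It had 152, 140, 145 and 198 CPM in M24 cultures with 1-NM-PP1 and 158 to 177 CPM in RGM24, against 27.5, 22.6, 34.3 and 30.5 CPM without a deletion. The M24 and RGM24 values all lay above those without a deletion, while the RG values of 28.0 to 56.0 CPM reached down into them. With DMSO the 4 strains had 1076 to 1348 (M24), 1059 to 1194 (RG), 1120 to 1376 (RGM24) and 1047 to 1217 CPM (no deletion). The interaction was 2.34 ± 0.25 in M24 (edgeR, adjusted p 1.18e-09), 2.44 ± 0.25 in RGM24 (adjusted p 1.52e-10) and 0.39 ± 0.24 in RG (adjusted p 0.884).

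Members with other roles gave interactions of like size. RPL22A had 52.9 to 79.7 CPM in M24 and 46.3 to 89.3 CPM in RGM24 with 1-NM-PP1, against 3.02 to 11.1 CPM without a deletion. Its interactions were 2.91 ± 0.67 in M24 (edgeR, adjusted p 0.00155) and 3.27 ± 0.67 in RGM24 (adjusted p 0.000218). RPL5 had 610 to 1518 CPM in M24 and 708 to 1106 CPM in RGM24 with 1-NM-PP1, against 70.5 to 316 CPM without a deletion, and its interactions were 2.31 ± 0.60 (adjusted p 0.00517) and 2.11 ± 0.60 (adjusted p 0.00726). For both genes the ranges did not overlap. RPL8A (eL8) gave 2.70 ± 0.60 in M24 (edgeR, adjusted p 0.00111), a call that was lost without the cultures numbered 1, at 2.68. Beside RPL22A, the largest called interactions in RGM24 were those of RPL24A at 3.14 ± 0.91 (adjusted p 0.00849) and RPP2A at 3.02 ± 0.82 (adjusted p 0.00525).

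In K. lactis no such difference was called. The 60S share with 1-NM-PP1 was 0.419 to 0.925% in M24, 0.477 to 0.983% in RG and 0.521 to 0.823% in RGM24, each overlapping the 0.532 to 0.977% without a deletion. Repressed members numbered 46 of 47 in each, against 12.8%, 13% and 12.4% of all genes, with medians of -4.996, -4.85 and -4.88, and RPP1 was the exception each time. No member was called in an interaction, against 0% of all genes in M24, 0.019% in RG and 0.0759% in RGM24. At an unadjusted p under 0.05 there were 0 members in M24, 4 in RG and 1 in RGM24, against 4.48%, 6.64% and 12.2% of all genes, and DESeq2 called 0. The medians were 0.14, 0.35 and 0.34. Whether the yeasts differ in this was not tested.

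Without PKA inhibition, no deletion changed the set in a way the test could call. In DMSO cultures of S. cerevisiae PKA-AS 0 members passed an adjusted p of 0.01 in edgeR and in DESeq2, against 0.0692% of all genes in M24, 1.25% in RG and 0.917% in RGM24. At an unadjusted p under 0.05 there were 0, 2 and 0 members, against 3.05%, 11.8% and 9.55% of all genes. In PKA-WT there were likewise 0 in M24, RG and RGM24 (0.156%, 0.796% and 0.865% of all genes), and 1, 2 and 13 members at an unadjusted p under 0.05 (4.76%, 10.1% and 14.1%). In K. lactis PKA-AS there were 0 in M24, RG and RGM24 (0%, 1.82% and 1.57% of all genes), and 0, 0 and 1 at an unadjusted p under 0.05 (1.23%, 10.4% and 11.6%). The medians over members ran from -0.81 to 0.16.

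No member was called between the kinase alleles in DMSO. PKA-AS against PKA-WT gave 0 called members in S. cerevisiae and in K. lactis (0% of all genes in both, edgeR), with 0 and 1 members at an unadjusted p under 0.05, against 3.84% and 5.03% of all genes, and DESeq2 called 0. The medians were -0.14 and 0.19.

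In PKA-WT cells without a deletion the 60S share was lower with 1-NM-PP1, as given above, but few members were called. In S. cerevisiae the shares were also apart in PKA-WT M24 and RG. In PKA-WT RGM24 they overlapped, at 9.40 to 14.1% with 1-NM-PP1 and 13.6 to 15.0% with DMSO. In S. cerevisiae 0 members were repressed without a deletion, in M24 and in RG (0% of all genes in each) and in RGM24 (0.0346%). At an unadjusted p under 0.05 there were 21, 27, 41 and 13 members, against 8.25%, 8.08%, 10.3% and 15.4% of all genes, and DESeq2 called 0, 0, 3 and 0 in the same order. The medians were -1.07, -0.84, -1.26 and 0.14. RPL31B had 903, 1078 and 931 CPM with 1-NM-PP1 and 1326, 1288 and 1066 CPM with DMSO in PKA-WT cultures 1, 2 and 3, ranges that overlap (-0.34 ± 0.20, edgeR, adjusted p 0.645). RPL28 had 11340, 11970 and 6232 CPM with 1-NM-PP1 and 17450, 21080 and 23280 CPM with DMSO, which do not overlap (-1.07 ± 0.36, adjusted p 0.32).

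The response in PKA-AS against that in PKA-WT was lower for 54 of 80 S. cerevisiae members, against 13.6% of all genes (edgeR, adjusted p under 0.01), with a median of -3.47, and for 34 of 54 40S genes. Without the cultures numbered 1 it was lower for 44 members. The largest differences were those of RPL39 (-5.72 ± 1.11, adjusted p 5.48e-05), RPL8A (-5.55 ± 0.68, adjusted p 6.01e-09) and RPL22A (-5.09 ± 0.74, adjusted p 2.78e-07). RPL31B differed by -4.96 ± 0.28 (adjusted p 1.91e-18). No member was called higher in this comparison.

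K. lactis PKA-WT gave more calls, which rested on few cultures. With 1-NM-PP1 8 of 47 members were repressed, against 1.31% of all genes, and 37 had an unadjusted p under 0.05, against 28.6% of all genes. The 8 repressed members were the orthologs of RPL3, RPL4, RPL7, RPL9B, RPL15, RPL18, RPL28 and RPP2B, with values from -2.17 ± 0.36 (RPL15) to -3.52 ± 0.68 (RPP2B) and -3.52 ± 0.73 (RPL18). K. lactis RPL3 had 1277, 1205 and 942 CPM with 1-NM-PP1 and 6049 and 6588 CPM with DMSO (-2.47 ± 0.37, edgeR, adjusted p 6.1e-05). Leaving out DMSO culture 1 left 4 calls, leaving out culture 3 with 1-NM-PP1 left 5, leaving out DMSO culture 2 gave 14, and leaving out every culture numbered 1 left 0. The interaction of PKA-AS against PKA-WT was lower for 33 of 47 members, against 7.97% of all genes, and 20 without DMSO culture 2. RPL38 led it at -6.05 ± 0.62 (adjusted p 8.33e-08), with 9.44 to 23.3 CPM in PKA-AS and 805 to 1225 CPM in PKA-WT with 1-NM-PP1, then RPP2A at -5.20 ± 0.49 (adjusted p 2.47e-08) and RPL30, which in S. cerevisiae regulates its own splicing, at -4.88 ± 1.06 (adjusted p 0.00125).

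Within the 34 A and B pairs, the balance between copies was tested as the change of the log2 ratio of A to B with 1-NM-PP1 (limma with Benjamini-Hochberg adjustment over all 513 S. cerevisiae pairs tested). The ratio changed in 7 of 34 pairs in PKA-AS (5 without the cultures numbered 1), against 43.5% of all pairs. For 14 pairs the ratio moved by under 0.5 and for 23 by under 1 on the log2 scale, and the median absolute change was 0.60. The 7 were RPL15 (-5.69 ± 0.90), RPL22 (-2.92 ± 0.29), RPL14 (-1.35 ± 0.29), RPL24 (-1.20 ± 0.36), RPL18 (-1.09 ± 0.29), RPL23 (-1.06 ± 0.34) and, in the other direction, RPL1 (1.75 ± 0.25). In the first 6 the share of copy A was lower with 1-NM-PP1, and in RPL1 that of copy B was lower. For 12 of 34 pairs, these 7 among them, the 4 ratios with 1-NM-PP1 did not overlap the 4 with DMSO, against 52.6% of all pairs. A count model for the pairs, edgeR's diffSpliceDGE, called 2 pairs, RPL15 and RPL9. Without the cultures numbered 1 the RPL18, RPL23 and RPL24 pairs lost their call and RPL37 gained it. RPL9 (-3.05 ± 1.05, adjusted p 0.0128) and RPL37 (-2.06 ± 0.78, adjusted p 0.0228) moved further than most of the 7 but varied more between cultures and were not called by limma.

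**Figure D3:**
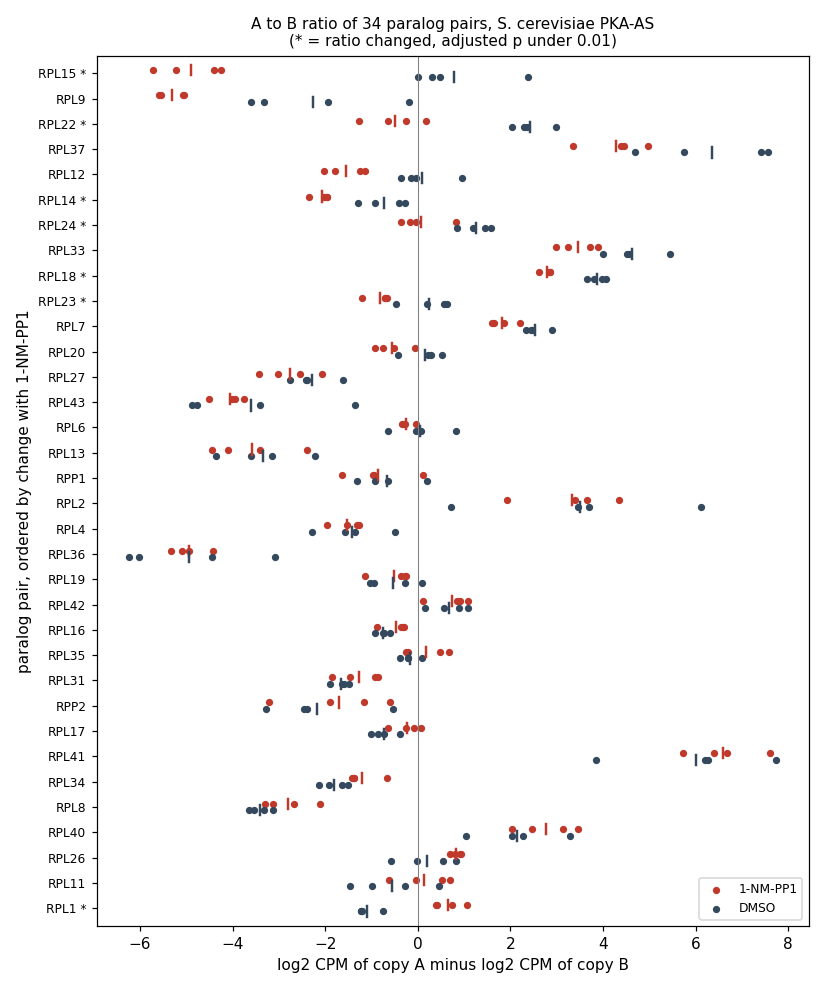
Log2 ratio of copy A to copy B in each S. cerevisiae PKA-AS culture without a deletion for the 34 pairs, with 1-NM-PP1 and with DMSO. Bars mark group means, pairs are ordered by their change with 1-NM-PP1, and an asterisk marks the called pairs. From DMSO to 1-NM-PP1 the ratio shifted by -5.69 for RPL15 and -2.92 for RPL22, away from copy A. For RPL1 it shifted by 1.75, away from copy B.

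RPL15 (eL15) showed the largest change. RPL15A had 8.50, 4.52, 5.39 and 13.5 CPM in PKA-AS cultures 1, 2, 3 and 2017 with 1-NM-PP1, against 768, 139, 185 and 236 CPM with DMSO. Its values with 1-NM-PP1 rest on only 17, 9, 11 and 23 counts in the same order. RPL15B had 196, 285, 235 and 273 CPM with 1-NM-PP1, against 146, 113, 184 and 170 CPM with DMSO. So RPL15A fell by 5.38 ± 0.85 on the log2 scale (edgeR, adjusted p 6.6e-07), with DMSO culture 1 far above the others and a value of -4.55 without it, while all 4 RPL15B values with 1-NM-PP1 lay above all 4 with DMSO. The RPL15B log2 fold change of 0.69 ± 0.30 did not pass the test (adjusted p 0.0508). In the deletion strains it was 0.74 ± 0.30 in M24 (adjusted p 0.0625), 0.92 ± 0.30 in RG (adjusted p 0.00958) and 0.89 ± 0.30 in RGM24 (adjusted p 0.0226), again without overlap of the groups. None reached the log2 threshold of 2. In PKA-WT RPL15B had 104 to 152 CPM with 1-NM-PP1 and 98.5 to 194 CPM with DMSO, which overlap (-0.32 ± 0.35, adjusted p 0.746).

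Copy B therefore made up 96.8 ± 1.50% of RPL15 counts in PKA-AS cultures with 1-NM-PP1 and 38.1 ± 15.1% with DMSO (SD, n = 4 each). The DMSO shares spread from 16.01 to 49.9% with culture 1 lowest. In the deletion strains the shares of copy B were 88.8% against 39.3% (M24), 95.2% against 33.5% (RG) and 84.6% against 40.4% (RGM24), and in PKA-WT 44.5% against 35.7%. The ratio change was called in all 4 PKA-AS strains, at -4.01 ± 0.90 in M24 (limma, adjusted p 0.000473), -5.52 ± 0.90 in RG (adjusted p 1.24e-06) and -3.11 ± 0.90 in RGM24 (adjusted p 0.0074). It differed between PKA-AS and PKA-WT by -5.01 ± 1.37 (limma interaction, adjusted p 0.00353). The K. lactis RPL15 ortholog had 13.4 to 19.8 CPM with 1-NM-PP1 and 197 to 447 CPM with DMSO in PKA-AS, a fall of 4.52 ± 0.33 on the log2 scale (edgeR, adjusted p 1.59e-12).

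**Figure D4:**
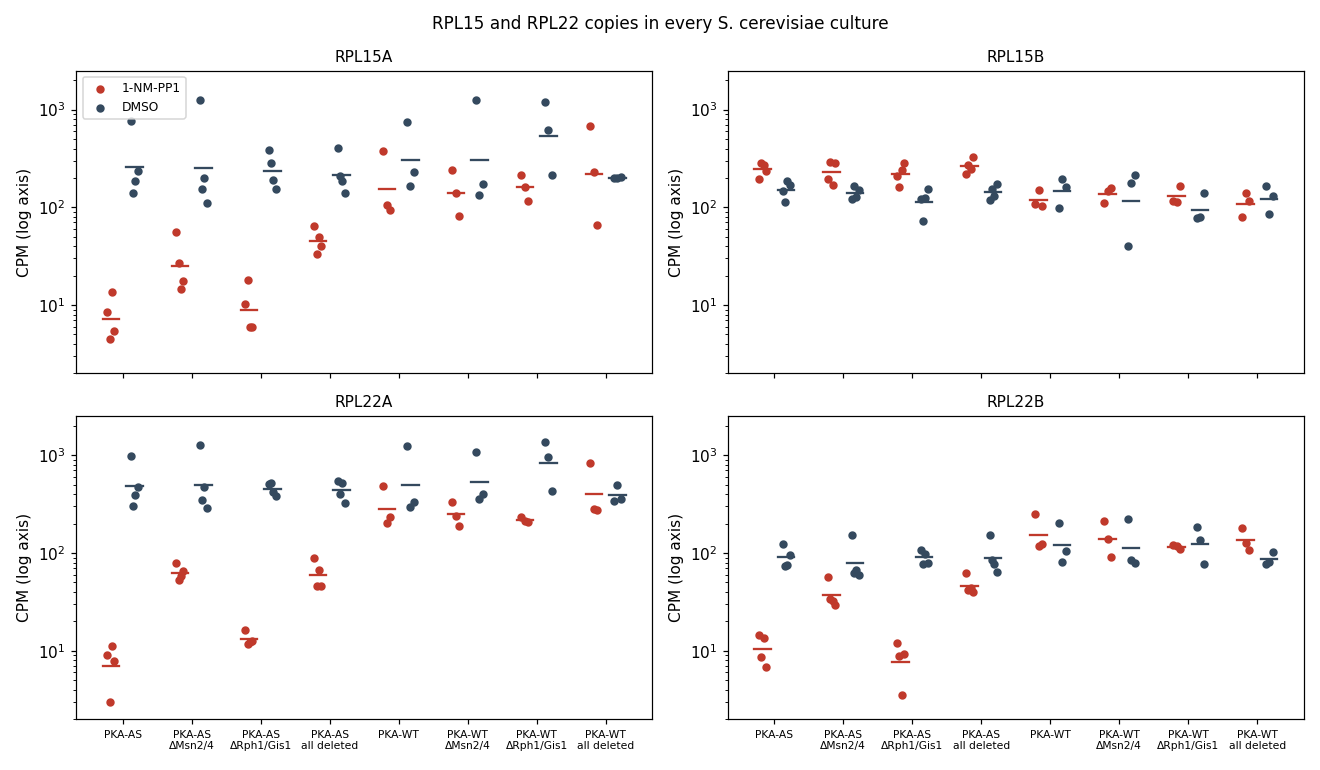
CPM (log axis) of RPL15A, RPL15B, RPL22A and RPL22B in every culture of S. cerevisiae PKA-AS and PKA-WT, with 1-NM-PP1 left of DMSO and bars at the geometric mean. In PKA-AS without a deletion RPL15A lies at 4.52 to 13.5 CPM with 1-NM-PP1 and 139 to 768 CPM with DMSO, while RPL15B lies at 196 to 285 CPM and 113 to 184 CPM.

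RPL22 (eL22) is a pair in which the protein is known to repress splicing of the RPL22B transcript in S. cerevisiae. RPL22A had 8.995, 3.02, 7.84 and 11.1 CPM in PKA-AS cultures 1, 2, 3 and 2017 with 1-NM-PP1, against 995, 304, 390 and 478 CPM with DMSO. RPL22B had 14.5, 8.55, 6.86 and 13.5 CPM with 1-NM-PP1, against 124, 73.4, 75.7 and 96.3 CPM with DMSO. Both copies fell without overlap, RPL22A by 6.12 ± 0.57 (edgeR, adjusted p 1.05e-12) and RPL22B by 3.09 ± 0.40 (adjusted p 8.46e-09) on the log2 scale. At so few CPM with 1-NM-PP1 the size of these falls is uncertain. The share of copy B was 59.3 ± 11.5% with 1-NM-PP1 and 15.9 ± 3.50% with DMSO (SD, n = 4 each), and these shares did not overlap. In PKA-WT without a deletion the shares did not overlap either, at 33.8 to 36.4% with 1-NM-PP1 and 14.04 to 23.97% with DMSO, but the ratio change of -1.16 ± 0.33 was not called (limma, adjusted p 0.0799). With 3 against 3 the exact permutation p cannot go below 0.10, the value found. In PKA-WT RG the RPL22 ratio was called at -1.82 ± 0.33 (limma, adjusted p 0.000438), a call lost without the cultures numbered 1. The change differed between PKA-AS and PKA-WT by -1.76 ± 0.44 (limma interaction, adjusted p 0.00132).

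RPL1 (uL1), the protein of the L1 stalk that helps release spent tRNA, went the other way. RPL1A had 116, 208, 193 and 259 CPM in PKA-AS cultures 1, 2, 3 and 2017 with 1-NM-PP1, against 1808, 2111, 3211 and 2764 CPM with DMSO. RPL1B had 55.5, 124, 145 and 199 CPM with 1-NM-PP1, against 4221, 4909, 7487 and 4633 CPM with DMSO. Copy B was the higher in each DMSO culture and the lower in each culture with 1-NM-PP1. Its share was 39.0 ± 5.20% with 1-NM-PP1 and 68.1 ± 3.67% with DMSO (SD, n = 4 each). The ratio change was 1.76 in RG (limma, adjusted p 7.81e-08), 0.81 ± 0.25 in M24 (adjusted p 0.00986) and 0.41 ± 0.25 in RGM24 (adjusted p 0.23). The RGM24 change differed from that without a deletion by -1.34 ± 0.35 (limma interaction, adjusted p 0.00334), a call lost without culture 1 with 1-NM-PP1 of the strain without a deletion. Coding sequences of the copies are 99.4% identical, the highest of the 34 pairs, and reads that match both copies equally are not counted.

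RPL9 (uL6) had the largest change of the ratio between copies after RPL15, though limma did not call it without a deletion. RPL9A had 2.00, 1.01, 0.980 and 2.93 CPM in PKA-AS cultures 1, 2, 3 and 2017 with 1-NM-PP1, which is 2 to 5 counts per culture, against 755, 99.4, 69.8 and 216 CPM with DMSO. RPL9B had 94.5, 91.0, 86.3 and 127 CPM with 1-NM-PP1, against 864, 1002, 855 and 838 CPM with DMSO. Both fell without overlap, and the DMSO values of RPL9A varied widely, with culture 1 highest, where those of RPL9B were even. In M24 the RPL9 ratio change was called at -3.70 ± 1.05 (limma, adjusted p 0.00505).

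The balance between copies was also tested in the other strains. Ratios changed in 6 of 34 pairs in M24 (23% of all pairs), 4 in RG (43.1%) and 2 in RGM24 (16.4%). With the culture number as a block the counts were 7 in M24, 8 in RG and 5 in RGM24, beside 9 without a deletion, and diffSpliceDGE called 2 pairs in M24, 1 in RG and 0 in RGM24, beside 2 without a deletion. Whether the strains differ in the number of called pairs was not tested. Of the 7 pairs of PKA-AS without a deletion, 4 were called the same way in M24, 4 in RG and 2 in RGM24. The M24 count was 3 without DMSO culture 1 and 3 without culture 4 with 1-NM-PP1, and in RGM24 only the RPL15 and RPL22 pairs were called. In PKA-WT the counts were 0 without a deletion (0.585% of all pairs), 0 in M24 (0.78%), 1 in RG (0.39%) and 0 in RGM24 (0.585%). At an unadjusted p under 0.05 the 3 strains with no call had 4, 2 and 5 pairs, against 7.8%, 7.99% and 14% of all pairs. Interactions were called for 0 pairs in M24 (10.3% of all pairs, with 4 pairs at an unadjusted p under 0.05, against 25.7% of all), 0 in RG (1.56%, with 1 pair, against 11.3%), 1 in RGM24 (16.4%) and 3 for PKA-AS against PKA-WT (24.4%), of which RPL15 alone was called without the cultures numbered 1. Between deletion strains and no deletion in DMSO 0 ratios differed in M24 (0.39%), RG (2.53%) and RGM24 (1.95%), with 0, 1 and 0 pairs at an unadjusted p under 0.05, against 3.7%, 16.4% and 12.9% of all pairs.

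Cultures of the same group differed far more for some members than for others. The within-group SD of log2 CPM ran from 0.196 to 2.34 over the 80 S. cerevisiae members (median 0.718), and 24 were above 1. RPL31B (0.196), RPL9B (0.204) and RPL19B (0.245) were the steadiest, and RPL2B (2.34) and RPP2B (2.26) the least steady. RPL2B, the second copy for uL2 beside the peptidyl transferase centre, had 29.0, 3.52, 9.31 and 16.4 CPM in PKA-AS cultures 1, 2, 3 and 2017 with 1-NM-PP1, against 2795, 219, 76.3 and 410 CPM with DMSO. The groups did not overlap (-5.91 ± 1.80, edgeR, adjusted p 0.00508), and culture 1 was highest in both. Without DMSO culture 1 the RPL2B value was -4.01 (edgeR, adjusted p 0.0434). In all, 19 members had a fold change, taken off the log2 scale, smaller by over 1.5 times without that culture. The 7 members that lost their call without it were RPP1A, RPP2B, RPL2B, RPL23B, RPL25, RPL37B and RPL43A. Across groups RPL2B was higher by 3.14 and RPP2B by 3.13 on the log2 scale in the cultures numbered 1 than in the others. In PKA-WT RGM24, however, RPL2B had 2285, 502 and 27.2 CPM with 1-NM-PP1 and 112, 46.1 and 78.0 CPM with DMSO, so culture 1 was high with 1-NM-PP1 and not with DMSO. The first principal component held 83.4% of the within-group variance of the members in S. cerevisiae and 54.1% in K. lactis, where 5 of 47 members had an SD above 1.

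**Figure D5:**
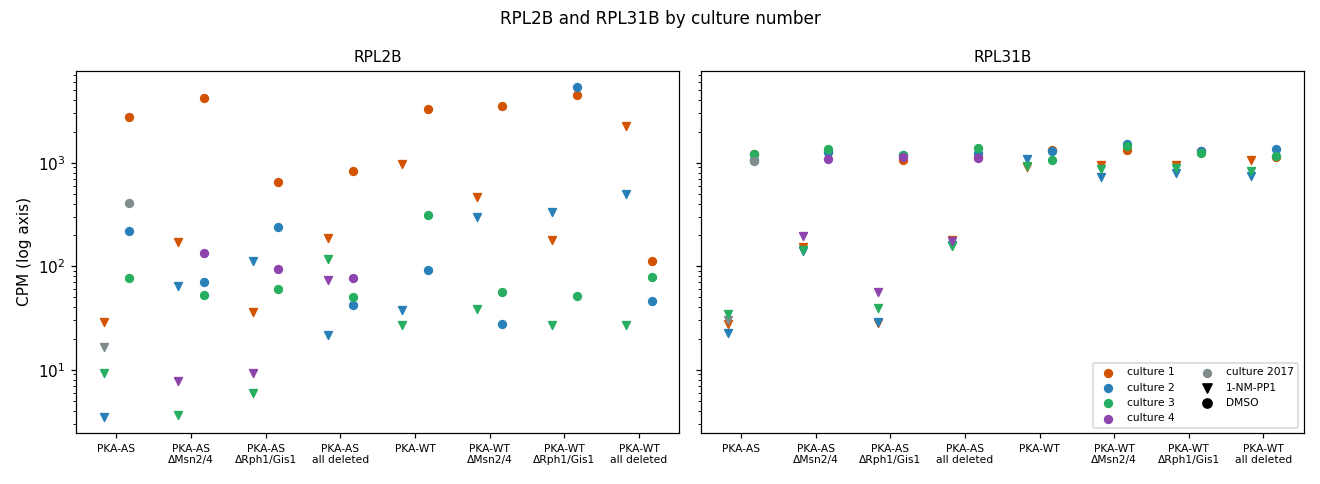
CPM (log axis) of RPL2B and RPL31B in every S. cerevisiae culture by its culture number, triangles for 1-NM-PP1 and circles for DMSO. RPL31B in PKA-AS without a deletion keeps to 22.6 to 34.3 CPM with 1-NM-PP1 and 1047 to 1217 CPM with DMSO, while RPL2B runs over 3.52 to 29.0 and 76.3 to 2795 CPM.

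The members were also sorted by features that the name rule did not use. In PKA-AS the 52 genes with an intron had a median log2 fold change of -4.48 and the 27 without of -4.79. The 39 with a Rap1 core in the promoter gave -4.53 and the 40 without -4.81, the 18 with an Fhl1 core -4.68 and the 61 without -4.65, and the 37 with an STRE -4.73 and the 42 without -4.38. These medians lie close together and are descriptions, with no test. Coding identity within pairs ran from 72.6% (RPP1A and RPP1B) to 99.4% (RPL1), with 93.2% for RPL15 and 79.9% for RPL22.

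Genes that serve the assembly of the 60S subunit were repressed too. Of 7 tested genes for dedicated chaperones and ribosome-like assembly proteins, 7 were repressed in S. cerevisiae PKA-AS (12.5% of all genes), with a median of -4.86. They included MRT4 (-6.47), which resembles RPP0 and holds its place during assembly, SYO1 (-4.86), which escorts RPL5 and RPL11, SQT1 (-2.95), the chaperone of RPL10, and ACL4 (-3.40), that of RPL4. In the same list 5 were repressed in M24 (6.59% of all genes), 7 in RG (12%), 5 in RGM24 (6.45%) and 0 in PKA-WT (0%, with 0 passing the adjusted p alone), and in K. lactis 8 of 8 in all 4 PKA-AS strains (12.4 to 13.6%) and 2 in PKA-WT (1.31%). Of 19 tested regulators of ribosomal protein genes, 1 was repressed in PKA-AS, the ribosome biogenesis repressor gene TOD6 (-3.97), and 1 was activated, CRF1 (2.96 ± 0.68), whose product displaces Ifh1. IFH1 changed by -1.45 ± 0.30, short of the fold threshold (edgeR, adjusted p 7.3e-05). In K. lactis 2 of 18 were repressed, the ortholog of TOD6 and DOT6 (-4.98) and that of CRF1 and IFH1 (-2.06), and 2 activated, the kinase gene YAK1 (2.23) and UME6 (2.76). Over all genes tested, 562 of 5779 were activated in S. cerevisiae PKA-AS and 446 of 5271 in K. lactis PKA-AS. Whether activation was more frequent among the regulators was not tested. For repression, the counts of 1 in 19 and 2 in 18 are no higher than the 12.5% and 13.6% of all genes that were repressed. Of 9 RNase P subunits, 4 in S. cerevisiae and 3 in K. lactis were repressed in PKA-AS, against the same shares of all genes.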

How the data were processed

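RNA was sequenced from the 3′ end (QuantSeq FWD), so CPM were not divided by gene length. The authors deposited read counts per gene, made with htseq (intersection-nonempty) on R64 with annotated 3′ ends for S. cerevisiae and on ASM241v1 with genes extended by 400 bases for K. lactis, so reads shared by copies are lost. Their fold change and p-value columns were not used. The authors' mean regularized log2 tables served only to find members by name. Repeat libraries were summed and 1 library labelled as dropped was left out.

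Genes that reached 2 counts in 3 samples or more were fitted with edgeR 4.0.16 (quasi-likelihood, TMM, all groups of a species as 1 factor). Ratios were fitted with limma 3.58.1 on log2 CPM with a prior count of 2. DESeq2 1.42.0, R 4.3.3 and Python 3.11.15 were used besides, and the scripts were tested on simulated data. Alternatives covered normalization, filters, prior count, a replicate block, only the groups compared, single cultures left out and, chosen after seeing the data, all cultures numbered 1. Named genes were those with a listed role, the 5 strongest and 5 weakest responses per species, the 8 largest ratio changes, all calls in PKA-WT and the 3 largest interactions per contrast. RPL5 in the deletion strains, RPL31B in RG and RGM24, RPL19B, RPL23B, RPL43A and the RPL18 and RPL23 pairs were named after their values were seen. Members and lists were chosen with earlier results of these data known. In S. cerevisiae PKA-AS same-numbered cultures deviated together without a deletion (r from 0.279 to 0.722) and in RGM24 (0.164 to 0.706). In M24 and RG 3 of 4 pairs correlated above 0.1 (0.25 to 0.837 and 0.53 to 0.643) and 1 did not (-0.118 and 0.0559). Without a deletion, culture 2 with 1-NM-PP1 reached 0.298 with DMSO culture 2 but 0.78 with a DMSO culture of another number. For same-numbered cultures, r ran from -0.284 to 0.876 in S. cerevisiae PKA-WT and from -0.339 to 0.747 in K. lactis. Cultures were divided into the 2 treatments, but the sources used here do not say that a number marks the same divided culture, so the block was run as an alternative.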

Additional observations from a re-analysis of the deposited data

Results flagged for a closer look

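Some cultures were flagged as outliers within their group, not always by a large gap. Of 14 groups, 1 had a flagged 60S share: K. lactis PKA-AS RG with DMSO, where culture 3 was at 14.38%. Of 124 gene groups of 4 cultures among the named members, 13 had 1, and chance gives about 1 in 20. In S. cerevisiae PKA-AS with 1-NM-PP1 these were RPL11B at 83.88 CPM and RPL28 at 1784 CPM in culture 2017 and RPL33B at 5.392 CPM in culture 3. With DMSO they were RPL10 at 499.6, RPL15A at 767.6, RPL2B at 2795, RPL37B at 127.3 and RPP2B at 10680 CPM in culture 1, RPL28 at 21560 CPM in culture 2017 and RPL9B at 1002 CPM in culture 2. The RPL28 and RPL9B values with DMSO lay close to the rest of their groups. In K. lactis PKA-AS they were RPL10 at 349.9 and RPL30 at 77.89 CPM in culture 2017 with 1-NM-PP1 and the RPL15 ortholog at 196.5 CPM in culture 3 with DMSO.

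By the interaction test the response was higher than without a deletion for 19 of 80 members in M24 and 33 in RGM24. The shares of all genes were 5.05% and 6.9%. It was lower in PKA-AS than in PKA-WT for 54 of 80 members in S. cerevisiae and 33 of 47 in K. lactis. Here the shares of all genes were 13.6% and 7.97%. Copy ratios differed for 1 of 34 pairs in RGM24, against 16.4% of all pairs. Between PKA-AS and PKA-WT they differed for 3 of 34, against 24.4% of all pairs.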

How the results depend on the processing

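Over all alternatives, 909 values for whole comparisons stayed within 1.5 times their main count and 40 did not, and of the values for single named genes and pairs 1501 kept their call, 77 lost it and 5 gained it. No value reversed its direction. With a replicate block, the members called in the interactions were 34 (M24) and 68 (RGM24), the PKA-WT RG repressed members 2, and the called ratios 8 (RG), 5 (RGM24), 3 (PKA-WT RGM24), 2 (M24 interaction), 4 (RGM24 interaction) and 5 (PKA-AS against PKA-WT). In M24 and RG 1 of 4 same-numbered pairs did not correlate above 0.1. Without a deletion, culture 2 with 1-NM-PP1 correlated more with a DMSO culture of another number. Pairing by number is therefore uncertain, and a changed count does not show a weaker or stronger effect. With only the groups compared, the interactions gave 8 (M24) and 51 (RGM24) members and K. lactis PKA-WT gave 0. DESeq2 gave 3 in PKA-WT RG. With edgeR's diffSpliceDGE, called ratios were 2 without a deletion, 2 in M24, 1 in RG, 0 in RGM24, 0 in PKA-WT RG, 0 in the RGM24 interaction and 1 between PKA-AS and PKA-WT. Without the cultures numbered 1, K. lactis PKA-WT gave 0 members, and called ratios were 0 in PKA-WT RG, 0 in the RGM24 interaction and 1 between PKA-AS and PKA-WT. Leaving out 1 culture at a time gave 4 to 14 members in K. lactis PKA-WT, 20 to 37 in its interaction with PKA-AS, and 3 to 5 pairs in M24, 1 to 2 in RGM24, 0 to 1 in PKA-WT RGM24, 0 to 1 in the M24 interaction and 0 to 1 in the RGM24 interaction. The cause of these changes was not tested. Depth limits the size of the change for members with under 10 counts per culture with 1-NM-PP1, such as RPL9A, RPL25 and RPL39. RPL15A, at 9 to 23 counts in PKA-AS without a deletion, lies close to this limit.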
